A study of Mus musculus with 16 samples.

Results

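The foam cells described here are peritoneal macrophages (PM) of LDAH transgenic (LDAH-Tg) mice, set against PM of their own wild-type (WT) controls, and they make up 8 of the 16 samples in the series. Every comparison is between 2 values per gene, the authors' mean transcript abundance, scaled for transcript length and library size (TPM), over the 4 LDAH-Tg samples and their mean over the 4 WT samples. Genes were kept where the mean of the 2 values was at least 1 TPM and neither was 0, which left 11395 of the 48432 genes in the table, 10438 of them protein-coding. Of the others, 27156 were at 0 in both groups, 9819 were under 1 TPM and 62 of at least 1 TPM were listed at 0 in 1 group. The last genes left out by the minimum of 1 TPM were *Gm26810* (1.02 in WT against 0.975 TPM in LDAH-Tg PM) and *Gm12185* (0.819 and 1.18 TPM), and the first kept were *M1ap* (0.699 and 1.30 TPM) and *Gm9796* (0.973 and 1.03 TPM).

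The LDAH-Tg mice carried the transgene in the hemizygous state, and its samples have the genotype label LDAH overexpression. The construct places LDAH behind the promoter of *Csf1r* and the FIRE enhancer in an intron of that gene, which act in macrophages and granulocytes. The control samples are labelled LDAH ApoE control, and all 8 samples have the strain label C57BL/6J. The transgenic founders were made in a mixed background and then crossed to C57BL/6, and it was not found in the sources whether the mice used for sequencing also lacked *Apoe*. The labels give neither age nor sex. PM of both groups were elicited with 3% thioglycolate, taken after 5 days and loaded with oxidized LDL (oxLDL) at 50 μg/ml for 48 h, so all values are of lipid-loaded cells.

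LDAH is a serine hydrolase found on lipid droplets, the organelles in which foam cells store cholesterol as ester. Cholesterol that arrives with LDL is freed from its ester in lysosomes by the acid lipase encoded by *Lipa*, is esterified again in the endoplasmic reticulum (ER) by the enzyme encoded by *Soat1*, and is stored in droplets that grow out of the ER. When the ester is hydrolysed, free sterol can leave the cell or act as a signal, and oxidized sterols activate the nuclear receptors LXRα and LXRβ.

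In the authors' means, *Ldah* itself had 28.5 TPM in WT PM against 124 TPM with the transgene (log2 ratio 2.10), and no other protein-coding gene of at least 5 TPM had a ratio as large. On chromosome 12 of GRCm38 the gene spans 8208107 to 8285759. A mean per gene does not separate transcripts of the transgene from those of the resident gene. Downstream of it *Hs1bp3*, the next measured gene, had a log2 ratio of 0.03, *Rhob*, a small GTPase gene, 0.10 and *Pum2*, a translational repressor gene, 0.0049. *Sdc1*, a surface proteoglycan gene, followed at -0.28 and the lysosomal membrane gene *Laptm4a* at -0.40 (301 and 229 TPM). The next measured gene upstream, *Atad2b*, ends at base 5047394 and was weakly expressed (1.93 and 1.53 TPM). The resident *Csf1r*, whose promoter the construct borrows, had 100.5 and 94.6 TPM (log2 ratio -0.09). *Apoe* was abundant in both groups, with 8775 and 7947 TPM. *Nnt*, a mitochondrial gene that is partly deleted in C57BL/6J mice, had 19.5 and 17.2 TPM. *Ldah* was in the other order in the knockout experiment, where LDAH-KO PM had 27.9 TPM against 44.5 TPM in their own WT controls (log2 ratio -0.67).

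Beyond *Ldah*, most genes differed little between the group means. The median log2 ratio of all 11395 genes was 0.0022 and the quartiles were -0.12 and 0.14. Of these genes 5759 were above 0, which is the background for counts by any size below. For 87.4% of genes the log2 ratio was under 0.32 in size, which is used below as a smaller limit. Log2 ratios here were taken after adding 0.5 TPM to each mean, which pulls the ratios of weakly expressed genes toward 0. At a factor of 1.5, 144 genes (1.26%) were higher in LDAH-Tg PM and 78 (0.685%) were lower. At a log2 ratio of 0.32, 860 (7.55%) were higher and 578 (5.07%) lower. Of the protein-coding genes, 71 (0.68%) were higher and 36 (0.345%) lower by a factor of 1.5. These are counts of sizes and not of tests. With the 4 samples of a group already averaged, the spread between samples is unknown, and so is the read depth, and none of the ratios could be tested.

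**Figure D1:**
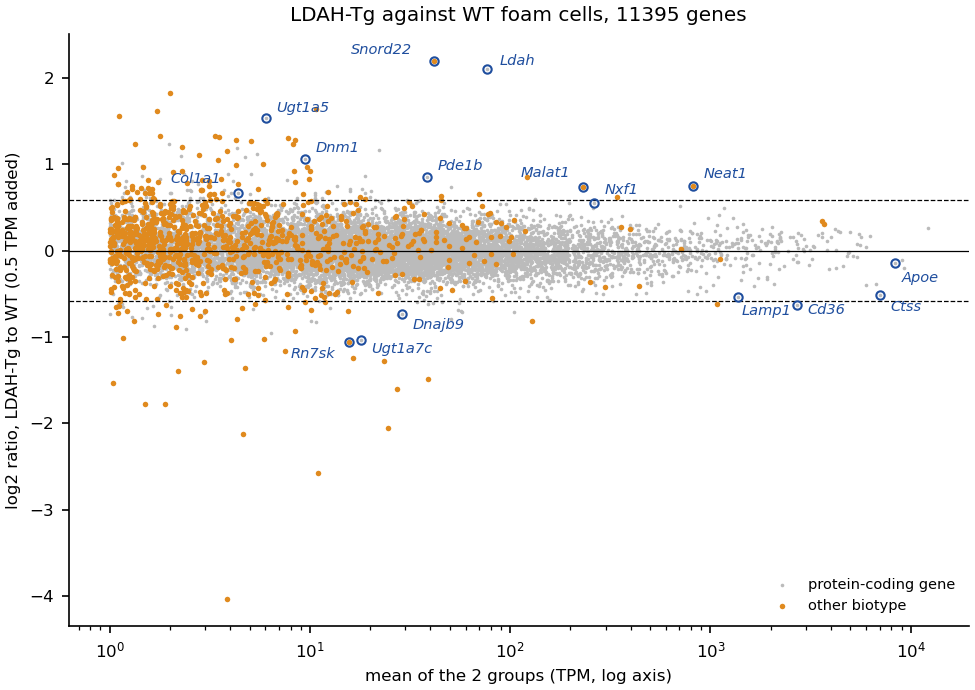
Log2 ratio of LDAH-Tg to WT PM (vertical axis, 0.5 TPM added to each mean) against the mean of the 2 groups (horizontal log axis, TPM), 1 point per gene, gray for protein-coding genes and orange for other biotypes. Dashed lines mark a factor of 1.5. *Ldah* stands at 2.10, and abundant genes such as *Apoe* and *Lamp1* lie within the dashed lines or close to them, while most points beyond them are weakly expressed.

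Differences past a factor of 1.5 were mostly in weakly expressed genes. The median of the mean TPM was 3.54 for the genes that were higher and 4.97 for those that were lower, against 16.9 for all genes measured. Among the 8570 protein-coding genes of at least 5 TPM, 34 were higher and 21 lower by that factor. Among the 1475 of at least 100 TPM, 1 was higher, the scaffold attachment factor gene *Safb2*, and 2 were lower, *Rnf149* and *Cd36*.

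Genes that were higher in LDAH-Tg PM were of several kinds. Some act in membrane traffic, such as *Syt8*, a synaptotagmin gene (3.24 and 7.59 TPM, log2 ratio 1.11), and *Dnm1*, which encodes the membrane-severing GTPase dynamin 1 (5.95 and 13.0 TPM, log2 ratio 1.06). In signalling, *Pde1b*, a calcium-dependent phosphodiesterase gene, had 27.2 TPM in WT PM against 49.8 TPM with the transgene (log2 ratio 0.86), and *Lime1*, an adaptor of Src-family kinases, had 10.0 and 17.2 TPM. Secreted factors included *Serpinf1*, which encodes the antiangiogenic factor PEDF (3.81 and 6.28 TPM, log2 ratio 0.65), and *Mdk*, which encodes the heparin-binding growth factor midkine (8.16 and 13.0 TPM, log2 ratio 0.64). These 3 kinds of gene ranged in their LDAH-Tg means from 6.28 TPM for *Serpinf1* to 49.8 TPM for *Pde1b*. Others work with tRNA, chromatin or cilia: *Ctu2*, a gene of tRNA thiolation, had 9.20 and 14.98 TPM, *Sap25*, of a histone deacetylase complex, 13.4 and 30.7 TPM, and *Ttll3*, of tubulin glycylation, 5.44 and 10.00 TPM. Among the 20 highest protein-coding genes, *Ankrd16* (0.74) had 37.95 and 63.6 TPM, and the lowest of the 20 was *Mdk*. *Dnm1*, *Lime1*, *Ctu2*, *Sap25* and *Ttll3* each overlap another measured gene in the annotation, which makes their values uncertain. The other genes named here do not.

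Genes that were lower in LDAH-Tg PM included some of the ER, of endosomes and of the cell surface. Of ER proteins, *Dnajb9*, a co-chaperone of BiP, had 36.2 TPM in WT PM against 21.6 TPM with the transgene (log2 ratio -0.74), and *Tusc3*, a subunit of the oligosaccharyltransferase, had 34.7 and 20.5 TPM. *Vapb*, which tethers the ER to other organelles, had 67.3 and 44.2 TPM, log2 ratio -0.60. In endosomes, *Rab5a*, the GTPase of early endosomes, had 41.4 and 27.3 TPM, log2 ratio -0.59, and *Cltc*, the clathrin heavy chain, 180.1 and 124 TPM, log2 ratio -0.54. The ratios of these 5 genes lay between -0.75 and -0.54. At the surface, the lectin gene *Cd302* had 70.4 and 43.2 TPM (log2 ratio -0.70) and the tetraspanin-like gene *Tm4sf19* 13.8 and 7.57 TPM (-0.83). The paired immunoglobulin-like receptor gene *Pira2* (13.0 and 7.22 TPM, log2 ratio -0.81) and the neighbouring *Gm14548* (8.57 and 4.19 TPM, log2 ratio -0.95) lie within 100 kb of each other on chromosome 7, and both belong to a family of near-identical genes whose reads can be shared. Also lower were *Qpct*, which encodes glutaminyl cyclase (64.6 and 37.2 TPM, log2 ratio -0.79), *Eif4e*, the cap-binding factor of translation (67.4 and 41.8 TPM, log2 ratio -0.68), *Snd1*, a nuclease subunit (71.7 and 43.6 TPM, log2 ratio -0.71), and *Ncoa4*, the receptor that takes ferritin to lysosomes (47.1 and 30.4 TPM, log2 ratio -0.62).

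Of the 1475 protein-coding genes of at least 100 TPM, 39 were higher past 0.32 and 71 lower. Several of the 10 highest act in nuclear RNA handling. *Safb2* had 106 TPM in WT PM against 161 TPM with the transgene (log2 ratio 0.60), *Nxf1*, the export receptor of mRNA, 212 and 311 TPM, log2 ratio 0.55, and *Hnrnph1*, a splicing repressor and activator, 216 and 304 TPM, log2 ratio 0.49. The 10 lowest were led by *Rnf149*, a membrane ubiquitin ligase gene, with 129.7 TPM in WT PM against 79.2 TPM with the transgene (log2 ratio -0.71), and *Cd36*, the scavenger receptor through which macrophages take up oxLDL, with 3276 TPM in WT PM against 2112 TPM with the transgene (log2 ratio -0.63). They also held *Ctss* (8294 and 5822 TPM, log2 ratio -0.51), *Lamp1* (1622 and 1121 TPM, log2 ratio -0.53) and *Lipa* (1007 and 709 TPM, log2 ratio -0.51), which encode a lysosomal protease, the main lysosomal membrane glycoprotein and the acid lipase. No value of *Cd36* or *Ctss* can be set beside these from the knockout experiment, where both are listed at 0.

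**Figure D2:**
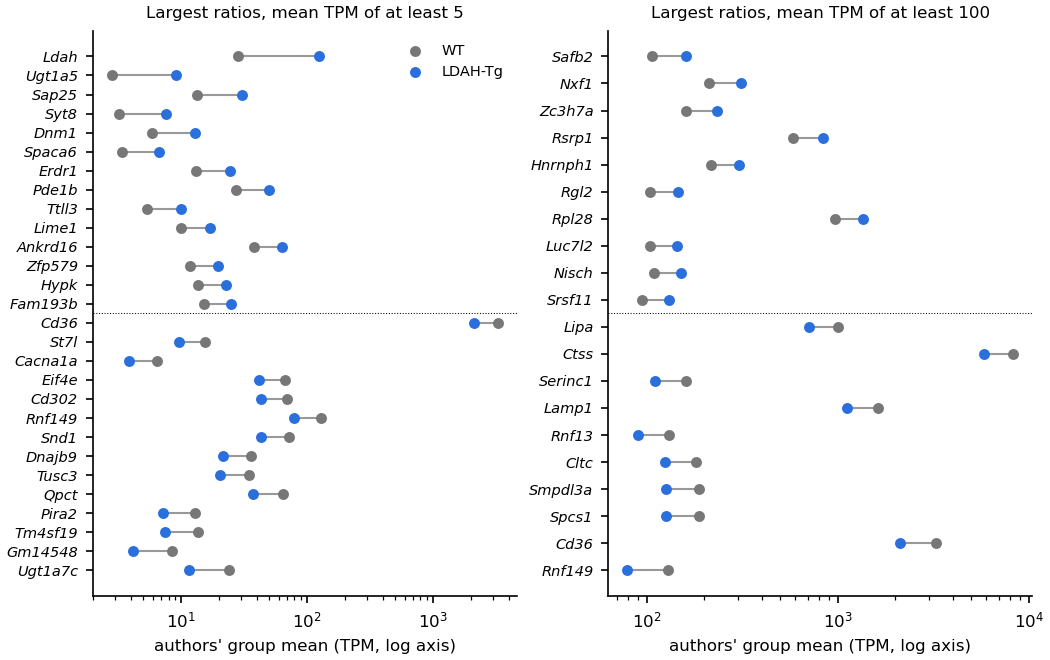
Authors' mean TPM in WT PM (gray) and LDAH-Tg PM (blue) on a log axis for the protein-coding genes with the largest ratios in each direction, 14 each at a mean of at least 5 TPM (left) and 10 each at a mean of at least 100 TPM (right). Above the dotted lines the blue points lie to the right of the gray ones, with *Ldah* the widest pair, and below them to the left, as for *Cd36* at 3276 and 2112 TPM.

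The ER was examined through lists of genes for its folding enzymes, its translocon and its stress sensors. Proteins bound for membranes, lysosomes or secretion fold in the ER with the help of chaperones, and when unfolded protein builds up the sensors ATF6, IRE1 and PERK raise the genes of these chaperones. All 28 listed ER chaperones and folding enzymes were measured, and 24 were lower in LDAH-Tg PM by any size, 9 past 0.32 and 1, *Dnajb9*, past a factor of 1.5, with none higher past 0.32. Their median log2 ratio was -0.18. *Hspa5*, which encodes the master chaperone BiP, had 896 TPM in WT PM against 650.2 TPM with the transgene (log2 ratio -0.46), *Calr* (calreticulin) 2351 and 1796 TPM, log2 ratio -0.39, *Hsp90b1* (GRP94) 547 and 422 TPM, log2 ratio -0.37 and *Pdia6*, a disulfide isomerase gene, 265 and 195 TPM, log2 ratio -0.44. In the opposite order, with small ratios, were *Fkbp2* (0.14), *Erp44* (0.11), *Txndc11* (0.06) and *Cnpy3* (0.03). Of 36 genes of the translocon and secretory traffic, 32 were lower, 5 of them past 0.32, with a median of -0.19. They were led by *Spcs1*, of the signal peptidase (188 and 126 TPM, log2 ratio -0.57), and *Ssr3*, of the translocon-associated complex (166 and 124 TPM, log2 ratio -0.43). The stress sensors, their factors and the degradation machinery stood nearer to 0, with a median of -0.07 over 25 genes, and *Ppp1r15a*, which restores translation after stress, was higher (157 and 195 TPM, log2 ratio 0.32). In LDAH-KO PM the medians of the 3 lists were -0.07, -0.08 and -0.09, and the median of all genes there was -0.075.

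The ER stress element is the best-known control sequence of these chaperone genes, and it was looked for in the RefSeq promoter windows of GRCm38.p6, which run from 250 bases before each annotated start to 50 after it. It was searched on both strands as CCAAT, 9 bases of any kind, and CCACG. Windows were found for 8446 of the measured genes, and 13 of them (0.154%) held it, as did 0.119% of all 32851 windows. Of the ER chaperones and folding enzymes 7 of the 21 with a window (33.3%) held it, against 1 of 21 in the list of stress sensors and 0 of 27 in that of the translocon. The 7 chaperone genes are shown because 6 of them were among the 8 lowest of their list, *Creld2* being the exception. CCAAT and CCACG, or CGTGG and ATTGG where the element lies on the other strand, are in capitals, with 15 bases on either side, read 5′ to 3′ along the gene.
Canx (chr11:50325785-50325833, minus strand): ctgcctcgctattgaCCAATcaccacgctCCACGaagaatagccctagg
Hspa5 (chr2:34772010-34772058, plus strand): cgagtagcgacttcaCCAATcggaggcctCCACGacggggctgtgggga
Pdia6 (chr12:17266476-17266524, plus strand): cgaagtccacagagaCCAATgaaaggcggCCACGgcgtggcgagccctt
Calr (chr8:84847060-84847108, minus strand): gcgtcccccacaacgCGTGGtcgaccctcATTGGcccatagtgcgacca
Hsp90b1 (chr10:86705623-86705671, minus strand): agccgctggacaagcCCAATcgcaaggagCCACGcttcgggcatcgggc
Dnajc3 (chr14:118937812-118937860, plus strand): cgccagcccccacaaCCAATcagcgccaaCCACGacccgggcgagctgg
Creld2 (chr15:88819505-88819553, plus strand): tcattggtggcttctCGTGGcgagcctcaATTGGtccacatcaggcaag

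Of the 13 genes with the element, 8 were lower in LDAH-Tg PM by any size and 5 higher, with a median log2 ratio of -0.30, against 0.0029 for the measured genes whose windows lack it. The 6 lowest were *Canx* (123 and 87.7 TPM, log2 ratio -0.48), *Hspa5*, *Pdia6*, *Calr*, *Hsp90b1* and *Dnajc3*, with log2 ratios from -0.48 to -0.36. *Hnrnpa3*, an RNA-binding protein gene, followed at -0.30 and *Creld2* at -0.08. *Adcy3*, *Syvn1*, *Alg12*, *Pan2* and *Xlr3b* were on the other side, from 0.04 for *Adcy3* to 0.86 for *Xlr3b*, a weakly expressed member of a family of near-identical genes (0.882 and 2.01 TPM). Outside the 7 chaperone genes shown above, *Hnrnpa3* alone was lower. *Creld2* and *Alg12* share the same site, read on opposite strands. *Dnajb9*, the lowest of the chaperones, does not hold these letters in its window. Within the chaperone list the median was -0.39 over the 7 genes with the element and -0.099 over the 14 without it. Some of these 7 genes were lower without LDAH too. Knockout against WT log2 ratios were -0.35 for *Canx*, -0.21 for *Calr*, -0.18 for *Hspa5*, -0.11 for *Hsp90b1* and -0.10 for *Dnajc3*. *Creld2* (0.02) and *Pdia6* (0.03) were on the other side of 0 there. Genes of that experiment as a whole stood at -0.075. A match of letters does not show binding, and these lists and the element were compared with the values known.

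Lysosomes carry out the first step of lipid unloading, and their genes leaned to lower values in LDAH-Tg PM. Of 41 lysosomal hydrolases measured, 40 were lower by any size and 10 past 0.32, with none past a factor of 1.5, and the exception was *Idua* (0.07). Their median was -0.19. After *Ctss* and *Lipa*, the lowest were *Arsb* (15.02 and 10.5 TPM, log2 ratio -0.50), *Asah1*, the acid ceramidase gene (315 and 224 TPM, log2 ratio -0.49), *Ctsc* (80.7 and 58.2 TPM, log2 ratio -0.47) and *Lgmn*, which encodes legumain (1882 and 1418 TPM, log2 ratio -0.41). *Ctsz*, *Acp5*, *Dnase2a* and *Neu1* were within 0.05 of 0 on the log2 scale. *Ctsb* and *Ctsd* are listed at 0 in both groups and *Ctsl* at 0 in WT, so the list lacks these 3 proteases. Of 20 lysosomal membrane proteins 17 were lower, with a median of -0.13, among them *Lamp1*, *Lamp2* (-0.41) and *Npc2*, which hands cholesterol to the lysosomal membrane (-0.27), whereas *Cln3* was higher (145 and 193 TPM, log2 ratio 0.41). The subunits of the proton pump had a median of -0.18 over 17 genes and were divided: *Atp6v0c* was lower (1102 and 799 TPM, log2 ratio -0.46) and *Tcirg1*, the a3 subunit, higher (1126 and 1460.3 TPM, log2 ratio 0.38). Genes of the autophagy machinery stood at -0.0037 over 31, with 15 higher. *Tfeb*, which drives lysosomal genes, had 104 and 120.2 TPM, log2 ratio 0.21.

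TFEB and its relatives bind the letters CACGTG, and 1037 of 8446 measured genes (12.3%) hold them in a promoter window, as do 8 of 33 lysosomal hydrolases (24.2%), 3 of 17 membrane proteins (17.6%) and 4 of 12 pump subunits (33.3%). *Lamp1* is shown since it had the lowest ratio of the membrane proteins. It holds 4, the first starting 61 bases before the start and the last 15 bases before it, in capitals in the last 101 bases upstream.
Lamp1 (chr8:13159060-13159160, plus strand): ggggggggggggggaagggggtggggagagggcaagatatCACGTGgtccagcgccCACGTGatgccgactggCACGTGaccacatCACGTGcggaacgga
Genes with these letters lay on both sides of 0. Hydrolases with CACGTG had a median of -0.17 and those without it -0.23, and *Cln3* and *Mcoln1*, higher in LDAH-Tg PM (0.41 and 0.24), hold it too. The longer form with GT before and AC after it was in 1 window of these lists, that of *Cln3*. Over all measured genes the medians with and without CACGTG were -0.0055 and 0.0039.

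**Figure D3:**
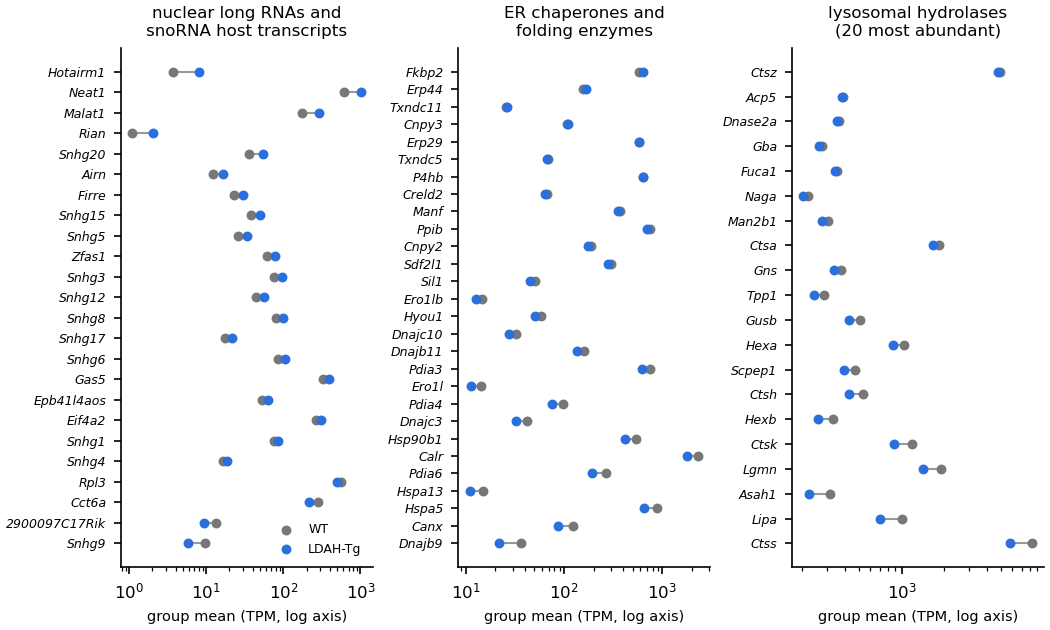
Authors' mean TPM in WT PM (gray) and LDAH-Tg PM (blue) on log axes for nuclear long RNAs and snoRNA host transcripts (left, 24 genes), ER chaperones and folding enzymes (middle, 28) and the 20 most abundant lysosomal hydrolases (right). Genes are ordered by log2 ratio. Most blue points lie right of the gray ones on the left, from *Hotairm1* down, and left of them in the other panels, where *Dnajb9* and *Ctss* stand lowest.

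Genes of lipid handling differed by list. Of 13 measured genes listed for the sterol ester cycle and sterol transfer, 9 were lower in LDAH-Tg PM and 4 higher (median -0.17), and this list holds *Ncoa4*, its lowest member, by mistake. *Soat1* had 239 TPM in WT PM against 180.5 TPM with the transgene (log2 ratio -0.41) and *Nceh1*, a neutral ester hydrolase gene, 124 and 100.5 TPM, log2 ratio -0.30. The sterol transfer gene *Gramd1a* was higher (26.0 and 34.0 TPM, log2 ratio 0.38). Of 12 scavenger receptors for modified LDL, 8 were lower, 3 past 0.32 and *Cd36* past a factor of 1.5, and *Msr1* had 194 and 159 TPM, log2 ratio -0.28. Of 22 genes of cholesterol synthesis and uptake, 18 were lower, 4 past 0.32, with a median of -0.15. They included *Sqle*, which encodes squalene epoxidase (9.72 and 6.99 TPM, log2 ratio -0.45), and *Msmo1* (47.2 and 36.3 TPM, log2 ratio -0.37). The sterol regulatory element, searched as ATCAC followed by CCCAC with 1 base changed at most, was in the windows of 3 of 17 of them (17.6%) and of 2.06% of measured genes. The 3 are *Hmgcs1* (-0.17), *Nsdhl* (-0.20) and *Srebf2* (-0.08). Fatty acid oxidation had a median of -0.12 over 22 genes, led by *Etfa*, which passes electrons from fatty acids to the respiratory chain (66.8 and 45.2 TPM, log2 ratio -0.56). Droplet coat and lipolysis genes other than *Ldah* were closer to their controls, with a median of -0.08 over 18 and 1 past 0.32, *Pnpla8* (17.9 and 14.1 TPM, log2 ratio -0.33). LXR targets outside fatty acid synthesis had a median of -0.003 over 15, with 8 lower. The efflux transporter genes *Abca1* (76.5 and 69.3 TPM, log2 ratio -0.14) and *Abcg1* (251 and 219.7 TPM, log2 ratio -0.19) were on the lower side, and *Smpdl3a*, a phosphodiesterase gene, was the lowest (188 and 126 TPM, log2 ratio -0.57). The highest was *Apoc2*, of lipoproteins (23.6 and 28.7 TPM, log2 ratio 0.28). *Cyp27a1*, which makes 27-hydroxycholesterol and is in the efflux list, was higher (27.0 and 34.5 TPM, log2 ratio 0.35). Fatty acid synthesis had a median of -0.12 over 14 genes (-0.035 with no minimum on TPM), 9 of them lower. The desaturase genes *Scd1* (-0.34) and *Scd2* (-0.33) and the acyl-CoA synthetase gene *Acsl3* (-0.34) were lower past 0.32. The highest, *Dgat1* (39.8 and 49.8 TPM), had a log2 ratio of 0.3216, just under the exact limit of 0.3219. In LDAH-KO PM the medians of cholesterol synthesis and fatty acid synthesis were also below 0, at -0.12 and -0.15. Fatty acid oxidation stood at 0.02 there, and the median of all genes was -0.075.

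Immune genes were compared for the state of the macrophages. The markers of resident peritoneal macrophages, which thioglycolate largely replaces with recruited cells, were lower as a list, with a median of -0.33 over 12 genes, 6 of them lower past 0.32. With no minimum on TPM the median was -0.13. *Adgre1*, which encodes F4/80, had 33.1 TPM in WT PM against 22.4 TPM with the transgene (log2 ratio -0.55), the lectin gene *Fcna* 18.6 and 13.8 TPM, log2 ratio -0.41 and the LXR target *Cd5l* 82.3 and 63.3 TPM, log2 ratio -0.38. Their defining factor *Gata6* was low and alike in both groups (1.97 and 2.07 TPM), and *Timd4* was under 0.1 TPM in both. In these bulk means, fewer resident cells and less of these transcripts in each cell cannot be told apart. In LDAH-KO PM the median of the list was 0.06. Of 19 C-type lectins and Siglecs 17 were lower, 5 past 0.32, with a median of -0.21 (-0.12 with no minimum on TPM), among them *Clec7a*, the receptor dectin-1 (502 and 379 TPM, log2 ratio -0.41), with *Clec1b* (0.37) the larger of the 2 exceptions. Of the foam cell and Trem2 program 22 genes were listed, and 6 of them were at 0 in both groups. All 16 measured genes were lower by any size, with a median of -0.16 (-0.093 after quantile normalization), but only *Cd36* passed 1.5. *Spp1* (osteopontin) had 6825 and 5177 TPM, log2 ratio -0.40 and *Cd9* 1924 and 1550.4 TPM, log2 ratio -0.31. Inflammatory lists lay near 0, at 0.06 for 16 cytokine and inflammasome genes and -0.01 for 38 interferon-response genes. *Tnf* had 15.1 and 17.1 TPM, log2 ratio 0.18 and *Il18* 20.6 and 20.4 TPM, log2 ratio -0.01. *Arg1*, an enzyme of alternative activation, was higher (88.1 and 109 TPM, log2 ratio 0.31), while its list stood at -0.02. *Mmp9* was lower (6.06 and 4.28 TPM, log2 ratio -0.46), and *Il10* was under 1 TPM in both groups, at 0.228 and 0.299 TPM.

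The cells were macrophages by their markers in both groups. Of 16 defining markers 15 were measured, from *Adgre1* to *Cd68*, which had 4959 and 4895 TPM, with a median of -0.07, and the other, *Lyz2*, is listed at 0 in WT. Markers of other cells were low, and the sums below run over all listed markers, those under 1 TPM included. Neutrophil markers (3 of 11 measured) summed to 129.8 TPM in WT PM against 127 TPM with the transgene, mostly *S100a8*, with *Ly6g* at 0 in both. Mesothelial markers (5 of 10) summed to 10.0 and 10.1 TPM. T and NK cell markers (1 of 12) summed to 2.69 and 2.14 TPM, B cell markers (1 of 10, *Ighm* with 11.7 and 14.4 TPM) to 13.1 and 16.7 TPM and dendritic cell markers (1 of 10, *Batf3*) to 17.1 and 22.5 TPM. Platelet and erythroid markers (1 of 11, *Pf4*) summed to 55.6 and 48.4 TPM, and those of eosinophils and mast cells (1 of 12, *Siglecf* with 3.14 and 2.62 TPM) to 4.50 and 4.82 TPM. Fibroblast markers (4 of 8) summed to 219.6 and 199 TPM, of which *Gsn*, also made by macrophages, held 199 and 179 TPM. Endothelial and smooth muscle markers (5 of 11) summed to 41.0 and 48.9 TPM, led by *Vwf*. The male-specific *Ddx3y* was at 21.3 and 20.04 TPM and *Xist* under 0.01 TPM in both groups. The part of these cells in the results was not tested.

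Matrix genes, which the study follows for plaque collagen, were weakly expressed. Of 8 collagen chains measured of 18 listed, 5 were higher in LDAH-Tg PM by any size and 1, *Col1a1*, by a factor of 1.5 (3.26 and 5.44 TPM, log2 ratio 0.66), with a median of 0.12 (0.054 with no minimum on TPM). *Col1a2* had 6.94 and 8.16 TPM, log2 ratio 0.22, *Col4a1* 2.68 and 2.06 TPM, log2 ratio -0.31 and *Col3a1*, also a fibroblast marker, 3.77 and 3.90 TPM, log2 ratio 0.04. Among genes of collagen processing and matrix, 16 of 23 were higher, and the median of 0.13 was 0.038 with no minimum on TPM and 0.049 at a mean of at least 5 TPM. They include *Serpinf1* past a factor of 1.5 and *Adamts10* (7.90 and 11.1 TPM, log2 ratio 0.46) and *Pcolce* (2.91 and 3.96 TPM, log2 ratio 0.39) past 0.32. *Dcn*, a fibroblast product, was on the other side (12.8 and 10.8 TPM, log2 ratio -0.24). The study itself displayed *Col1a1* and *Col1a2*, so their direction is not independent evidence. In LDAH-KO PM the medians of the collagen and the matrix list were -0.88 and -0.48, and that of fibroblast markers was -0.96, against -0.05 in LDAH-Tg PM. Endothelial and smooth muscle markers had a median of 0.18 in LDAH-Tg PM (0.038 with no minimum on TPM), with *Tagln* at 0.49, *Acta2* at 0.18 and *Des* at 0.15, and of -0.63 in LDAH-KO PM. Mesothelial markers stood at 0.11 and -0.25, the former -0.084 with no minimum on TPM. The part of such cells in the matrix values was not tested.

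**Figure D4:**
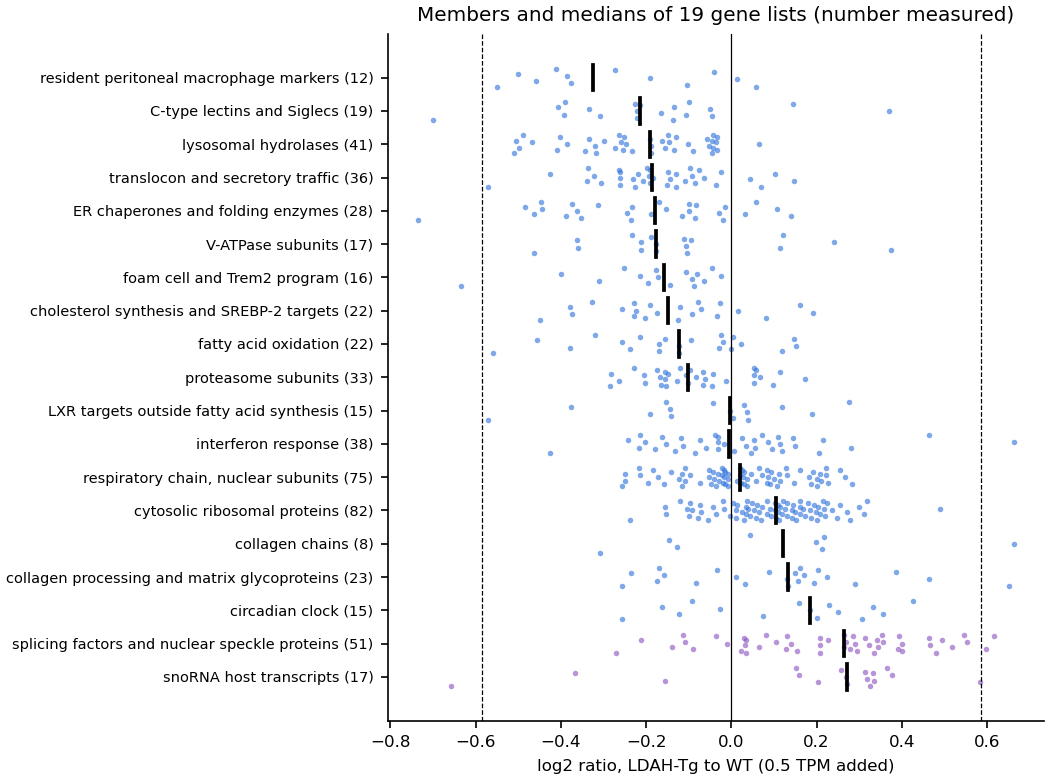
Log2 ratios of LDAH-Tg to WT PM (horizontal axis, 0.5 TPM added) for the measured members of 19 gene lists, 1 point per gene, with each list's median as a black bar and its number of measured members in brackets. Purple marks lists chosen after the values were seen, and dashed lines a factor of 1.5. Medians run from -0.33 for resident macrophage markers (-0.13 with no minimum on TPM) to 0.27 for snoRNA host transcripts.

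Some long RNAs kept in the nucleus were higher in LDAH-Tg PM. Of 7 measured, 6 were higher past 0.32 and *2900097C17Rik* was lower (13.5 and 9.24 TPM, log2 ratio -0.52), in a list drawn up after the values were seen. *Neat1*, the RNA scaffold of paraspeckles, had 611 TPM in WT PM against 1024 TPM with the transgene (log2 ratio 0.75), and *Malat1*, an RNA of nuclear speckles, 172 and 288 TPM, log2 ratio 0.74. Both have forms without poly(A) tails, which the poly(A) selection of these libraries takes up only in part. The list of transcripts made without such tails holds *Neat1* and *Malat1* too. Its median was 0.0080 over 10 genes, or -0.26 with no minimum on TPM. *Neat1* and *Malat1* were its only members higher by a factor of 1.5, and 4 members were lower by that factor. *Neat1* and *Malat1* had log2 ratios in LDAH-KO PM of -0.27 and -0.84. For proteins of the same bodies, a list of 51 splicing factors and speckle proteins was drawn up after the values were seen, so it is a description alone. Of these 43 were higher by any size, 19 past 0.32 and 2 past a factor of 1.5, none was lower past 0.32, and the median was 0.26. They include the scaffold genes *Srrm2* (72.1 and 105 TPM, log2 ratio 0.55) and *Son* (153 and 186 TPM, log2 ratio 0.28), the kinases *Clk1* (124 and 158 TPM, log2 ratio 0.34) and *Clk4* (99.5 and 131 TPM, log2 ratio 0.40), and *Rsrp1* (581 and 832 TPM, log2 ratio 0.52). The RNA-binding gene *Hnrnpa1* (-0.27) and the kinase gene *Prpf4b* (-0.21) were the lowest. The core proteins of the spliceosome, the Sm and Lsm rings and their partners, did not show this, with 10 of 20 higher and a median of 0.03. In LDAH-KO PM the medians of the 2 lists were -0.13 and 0.10.

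Long non-coding RNAs were more often past a factor of 1.5 than protein-coding genes. Of 540 long non-coding RNAs measured, 39 were higher by a factor of 1.5 and 4 lower, with a median of 0.18, whereas protein-coding genes had a median of -0.0029. Of the 10438 protein-coding genes, 71 (0.68%) were higher and 36 (0.345%) lower by that factor. Differences of that size were mostly in weakly expressed genes, and the biotypes were not compared at like TPM. *Hotairm1*, an RNA of the HoxA cluster, had 3.72 and 7.97 TPM, log2 ratio 1.01. *Gas5*, which carries snoRNAs in its introns, had 325 and 392 TPM, log2 ratio 0.27, and 14 of 17 host transcripts of snoRNAs were higher, among them *Snhg20* (35.9 and 54.1 TPM, log2 ratio 0.58) and *Zfas1* (61.3 and 77.5 TPM, log2 ratio 0.34), against *Snhg9* (9.58 and 5.89 TPM, log2 ratio -0.66). Small RNAs went both ways, and of 39, 8 were higher by a factor of 1.5 and 18 lower. *Snord22* had 14.6 and 68.9 TPM (log2 ratio 2.2) and lies within its host *Snhg1*, which had 76.1 and 85.1 TPM, log2 ratio 0.16. Lower were RNA polymerase III products without poly(A) tails, *Rn7sk* (21.4 and 10.1 TPM, log2 ratio -1.05), *Rmrp* (23.4 and 9.62 TPM, log2 ratio -1.24) and *Rpph1* (19.2 and 11.7 TPM, log2 ratio -0.69), and *Gm42418*, which overlaps the ribosomal RNA gene *Rn18s-rs5* (1306 and 853 TPM, log2 ratio -0.61). Libraries were made from poly(A) RNA, so these transcripts, like the tailless forms of *Neat1* and *Malat1*, are read only as far as they escaped that selection. In LDAH-KO PM *Rn7sk*, *Rmrp* and *Rpph1* were also lower than in their own WT controls, with log2 ratios of -1.32, -1.84 and -0.77. All 4 small nuclear RNAs measured were lower by a factor of 1.5. Others, listed at 0 in WT or LDAH-Tg PM, were left out and went both ways. They include *Gm22618* (0 and 60.8 TPM) and *Gm22169* (48.4 and 0 TPM). The mitochondrial ribosomal RNAs *mt-Rnr1* and *mt-Rnr2* were higher, at 0.31 and 0.35. Of 350 pseudogenes, 24 were higher and 19 lower, and their reads can be shared with parent genes.

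Translation and energy genes had small ratios. Of 82 cytosolic ribosomal protein genes 65 were higher by any size, but only *Rpl28*, which overlaps *Ube2s* in the annotation, passed 0.32 (968 and 1359 TPM, log2 ratio 0.49), and the median was 0.10. In LDAH-KO PM the median of these genes was 0.15, on the same side. Initiation and elongation factors had a median of -0.11 over 47, led by *Eif4e* and *Eif2s1* (48.1 and 35.8 TPM, log2 ratio -0.42). Proteasome subunits stood at -0.10, with 8 of 33 higher, and nuclear subunits of the respiratory chain at 0.02, with 40 of 75 higher. Of 15 circadian clock genes 10 were higher by any size and 5 lower, with a median of 0.18, against 5759 of all 11395 genes above 0. Past 0.32, 3 were higher, led by the weakly expressed *Per3* (1.38 and 2.03 TPM, log2 ratio 0.43). *Lars2*, a mitochondrial tRNA synthetase gene, was lower (44.6 and 29.8 TPM, log2 ratio -0.57). It was lower in LDAH-KO PM too, with 40.8 TPM against 77.2 TPM in their own WT controls (log2 ratio -0.91).

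The log2 ratio was higher in genes of higher GC content. The 10438 protein-coding genes were cut into 10 equal bins by the GC content of their longest transcript, and the median ratio went from -0.089 in the lowest bin (31.0% to 41.2% GC) to 0.13 in the highest (57.6% to 69.7%). Of the genes in the lowest bin 3.16% were higher past 0.32 and 11.5% lower, and in the highest 13.0% and 0.479%. Across these genes Spearman's rho was 0.35, given as a description, since genes share libraries and are not replicates. The genes higher by a factor of 1.5 had a median GC content of 54.4%, those lower 45.6% and all protein-coding genes 49.6%. No such order was seen with summed exon length, whose bins had medians between -0.025 and 0.023, and only a slight one with mean TPM, from 0.034 in the lowest bin to -0.017 in the highest. Gene span, from first to last annotated base, showed an order between these, with medians from 0.061 in the shortest bin to -0.048 in the longest, 1.92% and 7.19% of genes lower past 0.32, and a rho of -0.15. In LDAH-KO PM the order with GC was weaker, from -0.12 to -0.012, and that with exon length stronger, from 0.087 in the shortest bin to -0.25 in the longest.

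**Figure D5:**
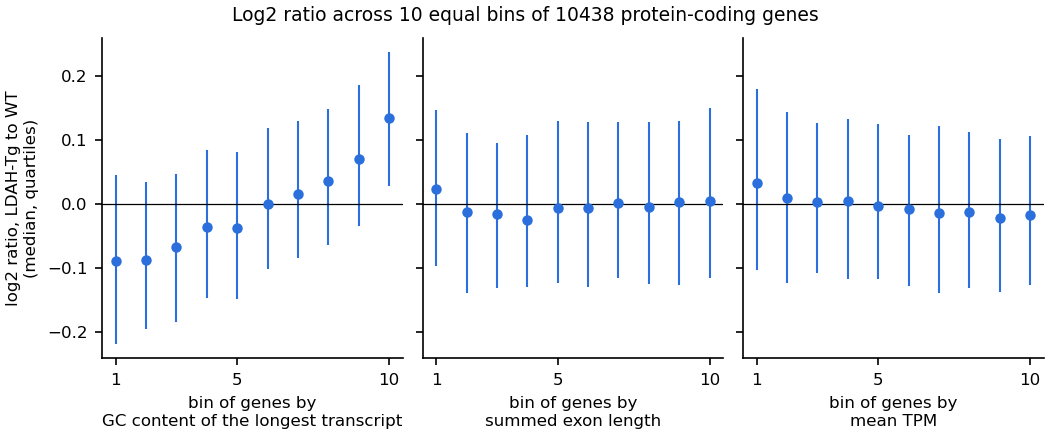
Median log2 ratio of LDAH-Tg to WT PM (points) with quartiles (bars) in 10 equal bins of 10438 protein-coding genes ordered by GC content, by summed exon length and by mean TPM. In the left panel the medians climb from -0.089 to 0.13, and in the others they stay within 0.04 of 0.

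The gene groups were therefore also read against genes of like GC content, by taking from each ratio the median of its GC bin, 1 of 20. The ER chaperones, with a median GC content of 48.8%, then stood at -0.19, lysosomal hydrolases (52.2% GC) at -0.22 and resident macrophage markers at -0.31. Speckle and splicing genes, which are poor in GC (44.1%), stood at 0.26. Lists that came nearer to 0 included V-ATPase subunits (from -0.18 to -0.12), translocon and secretory traffic (from -0.19 to -0.14), collagen chains (56.5% GC, from 0.12 to 0.08), collagen processing and matrix (from 0.13 to 0.09), C-type lectins and Siglecs (from -0.21 to -0.13) and ribosomal proteins (from 0.10 to 0.08). The ratio of *Ldah*, itself poor in GC, was 2.19.

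Genes with annotated retained introns were more frequent among those that were higher. Of all protein-coding genes 61.8% have such a transcript in GENCODE M21, of the 626 higher past 0.32, 72.4% and of the 459 lower 48.4%. The higher and the lower genes also differed in median GC content (53.5% and 44.6%) and in median TPM (9.29 and 16.2). The shares were not compared at like GC content, gene span or TPM. The means are per gene and do not show reads in introns. Genes that share their locus with another measured gene were also frequent. They made up 23.04% of all measured genes and 43.7% of those past a factor of 1.5. In the *Ugt1a* locus of chromosome 1, whose first exons join a common body, *Ugt1a5* was higher (2.84 and 9.20 TPM, log2 ratio 1.54) and *Ugt1a7c* lower (24.3 and 11.6 TPM, log2 ratio -1.04), and *Ugt1a6a* had 14.1 and 10.5 TPM, log2 ratio -0.41. *Sap25* and *Gm20605* overlap on chromosome 5 and were both higher (1.17 and 0.69). *Acrbp* (0.66) and *Lpar5* (-0.64) lie 4653 bases apart on chromosome 6 with opposite signs. The library kit keeps strand, but whether the counting used it is not given in the sources used here, so values of overlapping genes are uncertain.

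Among autosomes and X the share of protein-coding genes past a factor of 1.5 ran from 0.202% on chromosome 10 (1 of 495) to 1.75% on chromosome 15 (7 of 401). Chromosome 12, which holds *Ldah*, had 2 higher and 3 lower of 349. On Y, 1 of 5 was past it, *Erdr1*, with 13.2 TPM in WT PM against 24.6 TPM with the transgene (log2 ratio 0.87), which is listed at 0 in both groups of the knockout experiment.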

How the data were processed

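RNA was sequenced from thioglycolate-elicited PM loaded with oxLDL, 4 LDAH-Tg and 4 WT samples, from poly(A) RNA with a stranded kit. Per the submitters' processing notes, the tools included STAR 2.4.2a and Cuffdiff 2.2.1, besides DESeq2 and HTSeq, with reads made by bcl2fastq 2.17.1.14, trimmed in Trimmomatic and placed on mm10. Which of these gave the TPM values is not given in the sources used here. The deposited table holds the authors' mean TPM per gene for 4 groups, with a last row of totals that names no gene and was left out, and no values per sample, so precision and depth are unknown.

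Ratios were computed in Python 3.11.15 with pandas 2.3.3 and numpy 2.4.6 as log2((LDAH-Tg + 0.5)/(WT + 0.5)) and described with no test, and the script was tested on simulated data. Where a symbol had several rows, the one with the highest mean was named. Biotype, position, overlap, length and GC content came from GENCODE M21, which matched 99.2% of identifiers, and promoters from RefSeq on GRCm38.p6. Genes were named as the 20 highest and 20 lowest protein-coding genes of at least 5 TPM, the 10 highest and 10 lowest of at least 100 TPM, the 5 highest and 5 lowest of other biotypes, up to 6 members of each of 70 lists, *Ldah* and its neighbours, and genes that the study names. Further genes were named for their known role after their values were seen. The members and lists were chosen with earlier results of these data known, and 6 further lists, among them splicing and speckle genes and snoRNA hosts, and 4 alternatives were added after the values were seen. The knockout experiment has its own WT controls and shares no sample with the one described.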

Additional observations from a re-analysis of the deposited data

Results flagged for a closer look

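Abundant transcripts listed at 0 in WT PM lie outside the comparison. The lysozyme gene *Lyz2* had 10105 TPM in LDAH-Tg PM, the cathepsin gene *Ctsl* 5880.4 TPM and *Mir5136* 1690.7 TPM. All were listed at 0 in WT PM and in both groups of the knockout experiment, and *Ctsb* and *Ctsd* were at 0 in all 4 groups. No ratio was taken for them, and an exact 0 in such a table can be a failed estimate. In the other direction *Lilrb4a* and *Lilr4b* had 1563 and 977 TPM in WT PM and were listed at 0 in LDAH-Tg PM, and so was *mt-Nd2*, with 13146 TPM in WT PM. In all, 32 genes of a mean of at least 1 TPM were at 0 in WT PM and 30 in LDAH-Tg PM. With no minimum on TPM, the genes at 0 in WT PM summed to 18169.7 TPM in LDAH-Tg PM. Those at 0 in LDAH-Tg PM summed to 16076 TPM in WT PM.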

How the results depend on the processing

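No paired analysis was possible because the table holds group means alone, and for the same reason no sample could be left out in turn. The count of 144 genes higher and 78 lower by a factor of 1.5 became 347 and 202 with no minimum on TPM, 57 and 39 at a mean of at least 5 TPM, 71 and 36 for protein-coding genes alone, 29 and 20 at a factor of 2, and 860 and 578 at a log2 ratio of 0.32. Without a pseudocount 234 genes were higher, and among genes that overlap no other measured gene 73 were higher. Centring on bins of GC content gave 150 and 66, and quantile normalization 127 and 88. The log2 ratio of *Ldah* ranged from 2.09 to 2.19. With no minimum on TPM the median of the Tmem176 and Ms4a families went from -0.19 to 0.068 and that of mesothelial markers from 0.11 to -0.084, each list then holding weakly expressed genes too. In the same setting the median of resident peritoneal macrophage markers went from -0.33 to -0.13, of collagen chains from 0.12 to 0.054, of collagen processing and matrix from 0.13 to 0.038 and of endothelial and smooth muscle markers from 0.18 to 0.038. No other list with at least 3 measured genes and a median of at least 0.1 in size changed its sign under the alternatives run. The spread between samples and the read depth limit every value and could not be estimated.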
